A study of Mus musculus with 15 samples.

Results

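The genes of voltage-gated sodium and calcium channels were taken from a mouse brain transcriptome table by symbol alone. A gene was included if its symbol names a sodium channel α or β subunit (Scn followed by a number and a or b) or a calcium channel α1, α2δ, β or γ subunit (Cacna, Cacnb or Cacng followed by a number), and if at least 1 read was counted in any library. This gave 40 of 18931 genes: 10 sodium channel α, 4 sodium channel β, 10 calcium channel α1, 4 α2δ, 4 calcium channel β and 8 γ genes. Messenger RNA was sequenced from brains of Kunming mice, an outbred stock, in 5 groups of 3 libraries. All 15 samples, sham included, carry the heading MCAO (middle cerebral artery occlusion, a stroke model), and no gene alteration is named for any of them. The groups are a sham group, a vehicle group and groups given JA, UA or JU. The series title names jasminoidin, ursodeoxycholic acid and their combination, but the labels do not spell out the group codes. Not given in the sources used here were dose, time after occlusion, age, sex, brain region and hemisphere. Nothing in the labels ties each library to its own animal, so the p-values below rest on the spread among these samples alone, and that spread may be technical.

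Voltage-gated sodium channels carry the inward current that starts and propagates the action potential. Each has 1 large α subunit that forms the pore and smaller β subunits that adjust its gating and hold it in the membrane. Voltage-gated calcium channels turn depolarization into calcium entry, which triggers transmitter release at nerve terminals and drives firing patterns and gene regulation in the cell body. Their α1 subunit forms the pore, the intracellular β subunit and the extracellular α2δ subunit bring it to the membrane, and most neuronal γ subunits act mainly as auxiliary subunits of AMPA-type glutamate receptors. Sodium and calcium entry through these channels is a textbook step in ischemic injury of neurons.

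Total counts ran from 18346180 to 20447465 per library. 2 of the 15 libraries stood apart for these genes, JU replicate 1 and vehicle replicate 2. JU replicate 1 held the lowest level of all 15 libraries for 31 of the 36 channel genes with enough reads to test, at a median of 44.4% of the sham mean. In vehicle replicate 2 the median was 66.5% of the sham mean, and in the 10 libraries of the JA, UA and JU groups and of vehicle other than these it ran from 87.0% to 103.8%. The median over all genes tested stayed between 99.5% and 100.5% in every library. Markers of whole cell classes moved with these libraries. The summed level of 10 pan-neuronal markers was 9625 to 10053 CPM (read counts relative to library size, scaled between libraries) in sham, 5841 to 8272 in vehicle and 3839 in JU replicate 1, and none of the 10 was at 0 in any library. All 10 had a negative fold change in vehicle against sham. For 8 microglia and macrophage markers the sum came to 295 to 332 CPM in sham, 1107 to 2411 in vehicle, 342 to 909 in JA, 419.6 to 722 in UA and 3306 in JU replicate 1. In whole tissue, fewer neurons and less channel RNA per neuron cannot be told apart. Each comparison is therefore given with all 15 libraries and without JU replicate 1, and the part of cell composition in the results was not tested.

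Promoter windows are shown for 4 genes around which the results turn: Cacna2d1 and Cacna2d3, whose levels were lower in vehicle than in sham without JU replicate 1, and Scn2a and Scn8a, a pair of sodium channel α genes of which only the former passed that test. Each sequence is the 250 bases upstream of a RefSeq start site (GRCm38.p6), read 5′ to 3′ on the strand of the gene, and none of its bases lies in an annotated GENCODE exon. Capitals mark a GC box (GGGCGG, either strand), the letters bound by Sp family factors.
Cacna2d1, chr5:15934441-15934690, plus strand: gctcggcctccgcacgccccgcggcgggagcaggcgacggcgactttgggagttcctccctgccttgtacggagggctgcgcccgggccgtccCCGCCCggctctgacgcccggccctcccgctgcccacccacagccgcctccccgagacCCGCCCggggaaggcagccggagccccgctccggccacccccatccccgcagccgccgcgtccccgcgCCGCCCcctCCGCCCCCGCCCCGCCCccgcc
Cacna2d3, chr14:29721865-29722114, minus strand: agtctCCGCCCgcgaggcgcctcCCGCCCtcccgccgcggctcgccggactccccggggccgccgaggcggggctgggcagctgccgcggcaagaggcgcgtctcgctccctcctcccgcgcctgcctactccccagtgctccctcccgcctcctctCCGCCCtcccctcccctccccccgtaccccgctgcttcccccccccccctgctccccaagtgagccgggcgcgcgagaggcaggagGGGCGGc
Scn2a, chr2:65620519-65620768, plus strand: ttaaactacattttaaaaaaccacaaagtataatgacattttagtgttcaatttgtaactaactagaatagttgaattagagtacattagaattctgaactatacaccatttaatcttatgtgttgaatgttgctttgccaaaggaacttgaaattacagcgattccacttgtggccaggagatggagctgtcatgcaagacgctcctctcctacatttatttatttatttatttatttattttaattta
Scn8a, chr15:100870395-100870644, plus strand: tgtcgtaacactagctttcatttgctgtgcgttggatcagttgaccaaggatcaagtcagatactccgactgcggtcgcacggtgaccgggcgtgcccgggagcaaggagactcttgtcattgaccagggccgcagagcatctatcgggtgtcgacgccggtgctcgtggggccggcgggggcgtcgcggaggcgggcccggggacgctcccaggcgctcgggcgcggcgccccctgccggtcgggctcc
The Cacna2d1 window held 6 GC boxes, 82.4% G and C and 36 CpG dinucleotides, and the Cacna2d3 window held 4 GC boxes, 80% G and C and 30 CpG. The Scn2a window held none, with 29.6% G and C and 2 CpG, and the Scn8a window held none, with 68% G and C and 30 CpG. Both genes have other start sites in RefSeq: for each, another exon-free window had 53.2% G and C and 9 CpG (chr2:65668436-65668685, with a TATA box, and chr15:100936021-100936270). A GC box was found in 32.7% of all 32851 RefSeq windows of this length, whose median G and C content was 52.4%. RefSeq entries were found for 30 of the 40 channel genes. These have 41 windows, of which 15 held a GC box, 10 a CCAAT box (CCAAT, in 33.8% of all windows) and 2 a TATA box (TATAAA, in 12.4%), with both strands searched. None held an E box (CACGTG), a cyclic AMP response element (TGACGTCA) or an NRF1 site, which were in 6.02%, 1.55% and 0.782% of all windows. A match of letters is a description and does not show a bound site.

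Levels between genes were compared on the deposited FPKM scale (fragments scaled for transcript length and library size). In sham brain the accessory sodium channel subunit Scn2b, which is linked to the α subunit by a disulfide bond, was at 74.3 ± 4.05 FPKM (mean ± SD, n = 3). The γ gene Cacng3 at 68.8 ± 0.333 and Scn4b at 66.6 ± 7.22 FPKM were somewhat lower and lay within 1 SD of each other, while Scn3b was at 49.1 ± 1.16. Among the pore-forming sodium channel genes the order was Scn2a, Scn8a, Scn1a and then Scn3a, the form known for its high level in embryonic brain, at 50.5 ± 1.66, 25.5 ± 1.83, 21.9 ± 1.66 and 2.24 ± 0.184 FPKM. The sham ranges of 1 SD around Scn8a and Scn1a nearly touched. Cacna1a (P/Q-type, the main channel of fast central synapses) was the highest calcium channel pore gene at 15.9 ± 1.23 FPKM, followed by Cacna1b (N-type) at 11.6 ± 0.843 and Cacna1i (T-type) at 10.1 ± 0.476. Cacna2d3 led the α2δ class at 43.5 ± 3.93 and Cacnb3 the calcium channel β class at 54.5 ± 4.34, ahead of Cacnb1 at 36.4 ± 1.07. After Cacng3, the highest γ gene in sham was Cacng7 at 58.1 ± 2.96 FPKM. The transcript length implied by counts and FPKM was well above the longest annotated transcript for some genes, so their FPKM is low for their counts: 53709 against 14921 bases for Cacna1e, 22423 against 7436 for Cacna2d1 and 20263 against 9560 for Scn3a. It was below it for Cacng3, with 1523 against 2777 bases. Per kilobase of the longest transcript, mean CPM over all libraries was 34.6 for Cacng3 and 95.1 for Cacng7, the reverse of their FPKM order. On the same scale Cacna1e was at 17.2, close to Cacna1a at 17.6 and above Cacna1b at 13.3. Cacna2d1 was at 33.1, near Cacna2d3 at 36.8. The order within the calcium channel α1, α2δ and γ classes thus depends on the transcript length used.

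Genes known as channels of other tissues were near the floor of detection, taken as 3 counts or 0.147 to 0.164 CPM (counting error only). Scn4a of skeletal muscle had 7 counts over all 15 libraries, Cacna1f of the retina 34, Cacng1 of skeletal muscle 58 and Scn11a of pain-sensing neurons 95. These 4 genes had too few reads for the low-count filter and were not tested with all libraries, which left 36 channel genes among 15125 genes tested. Scn10a, another gene of sensory neurons, passed the filter at 0.0512 to 1.21 CPM per library. Its values straddled the floor, and no fold change is given for it.

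Of the summed FPKM of the 10 sodium channel α genes, Scn2a supplied 48.1%, 49.2% and 51.6% in the sham libraries, Scn8a 25.6%, 25.5% and 24.1%, and Scn1a 22.7%, 21.3% and 20.5%. In vehicle the sum was 88.7, 60.8 and 89.5 FPKM against 101.7, 106.1 and 97.5 in sham. The Scn8a share was 29.1%, 29.3% and 29.1% in vehicle, above every sham library, and the library with the lowest sum, vehicle replicate 2, had nearly the mix of the other two. The difference in the Scn8a share was 4.13 percentage points (two-sided exact permutation test, p = 0.1, 0.133 adjusted over the 4 shares tested), and 3 against 3 libraries cannot give a p below 0.1. The mean Scn8a share was 25.5% in JA, 25.2% in UA and 28.4% in JU. All 3 JU libraries, replicate 1 included, were above every sham, JA and UA library. On CPM divided by transcript length the Scn8a share was 29.3% in sham and 33.7% in vehicle, higher on both scales. The 6 vehicle and JU libraries, those with the higher Scn8a share, were also the 6 with lower levels of GC-poor genes (values below), and the transcripts of Scn2a and Scn1a have 43.4% and 43.3% GC against 50.8% for Scn8a. With library trends on GC content removed and JU replicate 1 left out, the log2 fold changes of Scn8a, Scn2a and Scn1a in vehicle against sham were -0.25 ± 0.14, -0.28 ± 0.13 and -0.35 ± 0.16. Before the correction they were -0.19, -0.49 and -0.55. After it the values of Scn8a, Scn2a and Scn1a lay within 1 SE of each other, and the differences between them were not tested. The correction takes out any difference between libraries that follows GC content, whatever its origin. The part of GC content in the Scn8a share was not tested.

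**Figure D1:**
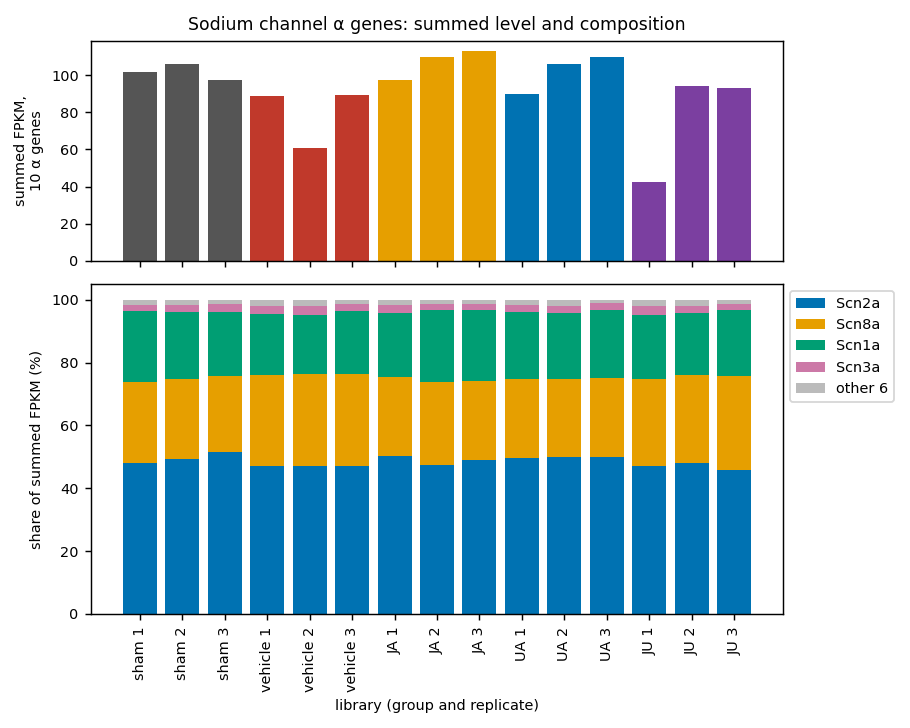
Sodium channel α genes in each of the 15 libraries. The upper bars give the summed FPKM of the 10 genes and the lower bars the percent of that sum from Scn2a, Scn8a, Scn1a, Scn3a and the other 6; the sum is lowest in JU replicate 1 (42.4) and vehicle replicate 2 (60.8), and the Scn8a share runs from 24.1% to 25.6% in sham and from 29.1% to 29.3% in vehicle.

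Vehicle against sham sets the group given vehicle against the sham group. Most channel genes were lower in vehicle: 32 of 36 had a negative log2 fold change, with a median of -0.26 over the channel genes and 0.00 over all genes tested. Levels in all 3 vehicle libraries were below all 3 sham libraries for 15 of the 36 genes, where 24.7% of all genes tested did so, and above them for 2, Cacna1d and Scn10a, where 24.5% of all genes did. With all 15 libraries in the fit, 0 channel genes passed an adjusted p of 0.05 (edgeR quasi-likelihood test, Benjamini-Hochberg over all genes tested), where 5.02% of all genes passed. 5 had an unadjusted p under 0.05, as did 4431 of all 15125 genes, and DESeq2 called 1 lower, Cacnb2 (9.4% of all genes lower). With only the sham and vehicle groups in the fit, 8 were called lower (11.7% of all genes). Without JU replicate 1 the fold changes hardly moved, the SEs were smaller and 10 of 37 channel genes fell (Scn11a passed the filter there), where 16.9% of all genes were called lower, and 0 rose. Without vehicle replicate 2, but with JU replicate 1 in the fit, the median over the channel genes moved to -0.14. There edgeR called 0 channel genes, and 81 of all 15262 genes lower and 2 higher. An unadjusted p under 0.05 was found for 1 channel gene and for 2471 of all genes. Since JU replicate 1 stayed in, this fit cannot show whether the 10 calls made without it depend on vehicle replicate 2.

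**Figure D2:**
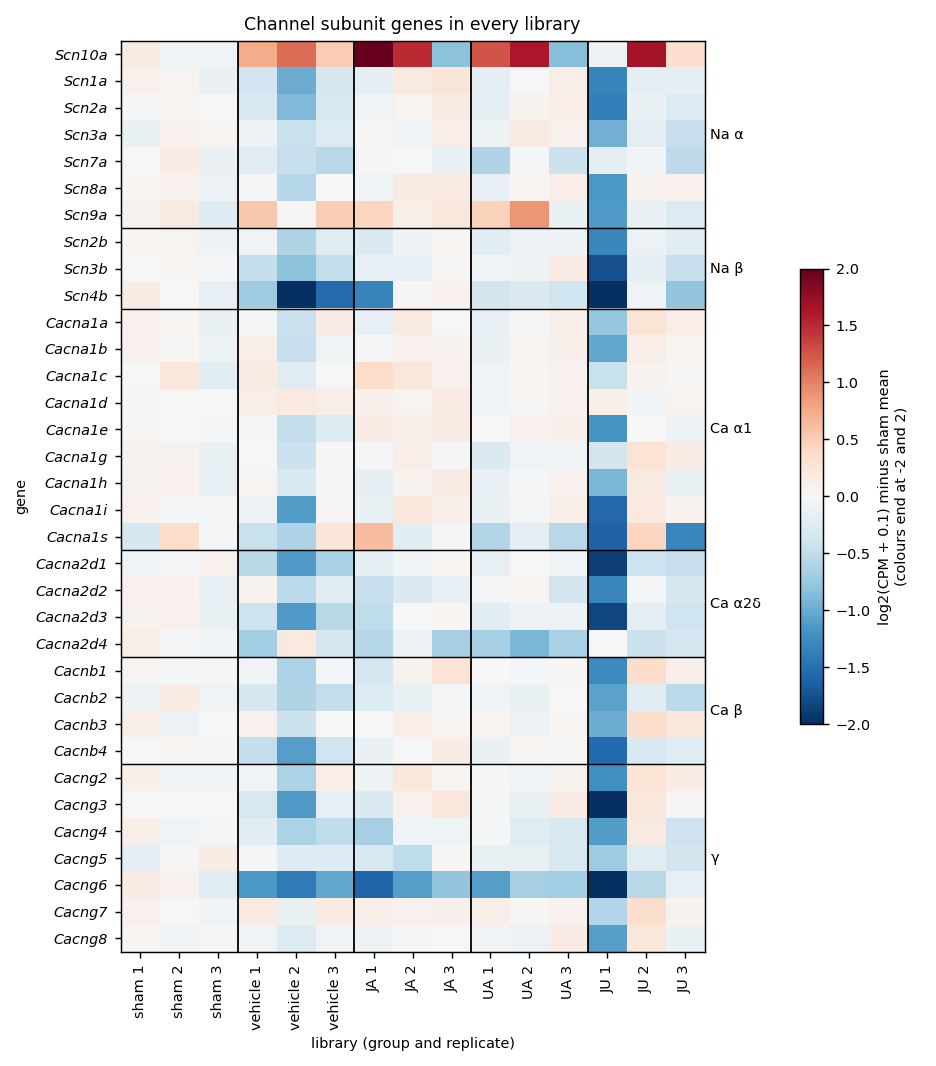
Each row is 1 of 34 channel genes tested and each column 1 library; colour gives log2(CPM + 0.1) minus the sham mean, with colours ending at -2 and 2. JU replicate 1 is the lowest library for 29 of these genes and vehicle replicate 2 is below the sham range for 30.

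Of 9 sodium channel α genes tested without JU replicate 1, Scn2a and Scn1a fell in vehicle, and the class median was -0.35. Scn2a, the main pore of excitatory neurons, was at 441, 469 and 451 CPM in sham and 362, 247 and 367 in vehicle. Every vehicle library lay below every sham library, with vehicle replicate 2 far below the other two. Its log2 fold change was -0.48 ± 0.25 (SE; adjusted p = 0.22, edgeR) with all libraries and -0.49 ± 0.13 (adjusted p = 0.0149) without JU replicate 1. Scn1a, which inhibitory interneurons depend on most for firing, was at 201, 196 and 174 CPM in sham and 145, 95.5 and 151 in vehicle, again without overlap. Its log2 fold change was -0.55 ± 0.16 (adjusted p = 0.0198) without JU replicate 1 and had an adjusted p of 0.188 with it. Markers of inhibitory interneurons were lower in vehicle too: all 7 had negative fold changes, none was at 0, and their sum was 1219 to 1252 CPM in sham and 585 to 923 in vehicle. Markers of other neurons were mostly lower as well, with 10 of 10 pan-neuronal, 9 of 9 striatal, 5 of 6 cortical excitatory and 6 of 7 thalamic markers negative. The part of interneurons in the Scn1a difference was not tested. Scn8a, the channel of nodes of Ranvier and the axon initial segment, was at 388, 402 and 349 CPM in sham and 372, 254 and 375 in vehicle, where replicates 1 and 3 fell inside the sham range (log2 fold change -0.19 ± 0.14, adjusted p = 0.291). Scn3a did not pass (-0.28 ± 0.11, adjusted p = 0.0648). The low-level genes Scn7a and Scn9a, under 10 CPM in every library, did not pass either, and Scn9a had a positive value of 0.37 ± 0.29.

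All 4 sodium channel β genes had negative fold changes, and 2 of them fell without JU replicate 1. The class held the member with the largest drop: Scn4b, the β4 subunit that supports resurgent current and is abundant in striatum, was at 354, 322 and 284 CPM in sham and 194, 53.6 and 109.7 in vehicle. The groups did not overlap, but the vehicle libraries themselves spread more than 3-fold. The log2 fold change was -1.43 ± 0.45 (adjusted p = 0.0321) without JU replicate 1 and -1.43 ± 0.69 (adjusted p = 0.187) with it. The sum of 9 markers of striatal projection neurons, none at 0, was 1619, 419 and 552 CPM in the vehicle libraries and 1559 to 1899 in sham, in the same order as Scn4b within vehicle. Its part in the Scn4b difference was not tested. Scn3b, the β3 subunit, was at 206, 210.1 and 200.4 CPM in sham and 148, 117 and 147 in vehicle, with a clear gap between the groups. Its log2 fold change was -0.59 ± 0.11 (adjusted p = 0.00274; 0.184 with all libraries). Scn2b had a smaller value of -0.30 ± 0.12 and did not pass (adjusted p = 0.0645).

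**Figure D3:**
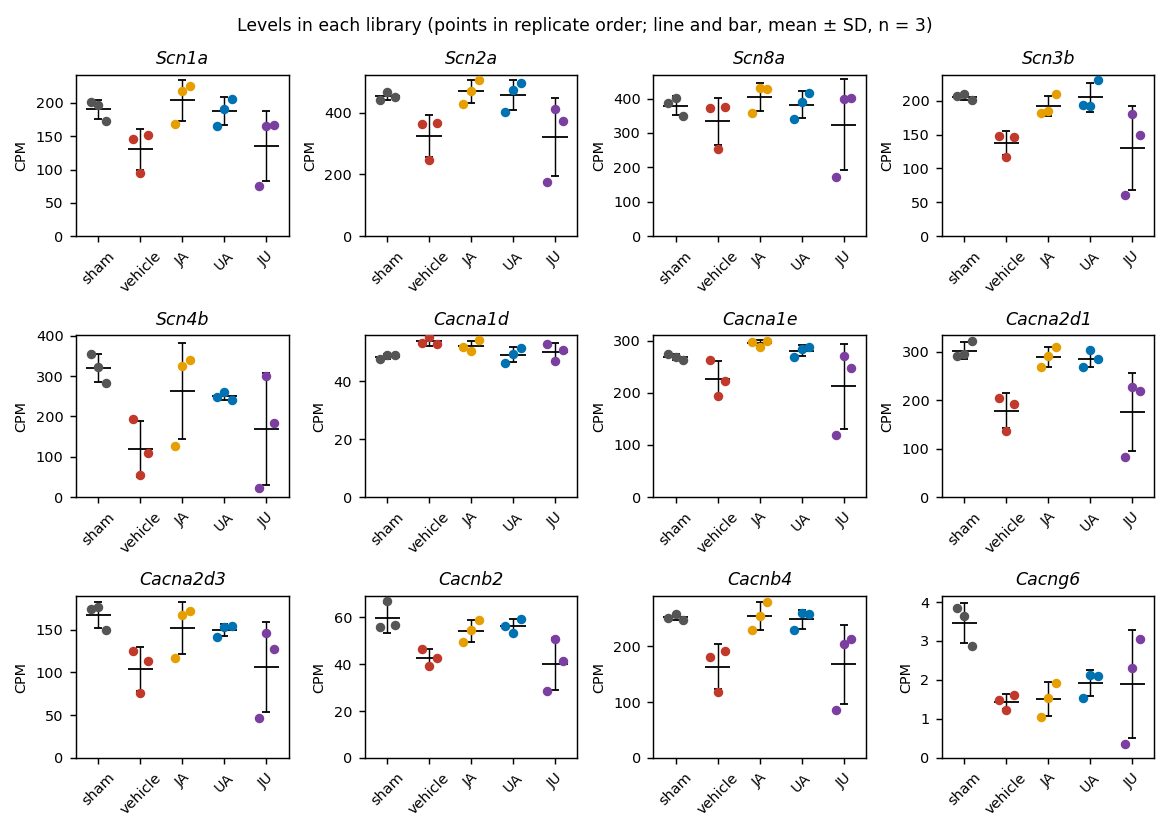
CPM of 12 channel genes in every library, with points in replicate order and the group mean ± SD (n = 3) as line and bar; axes start at 0. In vehicle every library is below sham for the genes shown other than Scn8a and Cacna1d, and JU replicate 1 is the lowest point in every panel but that of Cacna1d.

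Of the 6 classes, the calcium channel pore genes had the median log2 fold change nearest to 0 in vehicle against sham, -0.13 over 9 genes without JU replicate 1. Only Cacna1e (R-type) fell without JU replicate 1, from 274, 269 and 262 CPM in sham to 262, 193 and 222 in vehicle (-0.26 ± 0.09, adjusted p = 0.0439; 0.471 with all libraries). Vehicle replicate 1 was barely under the lowest sham library. The presynaptic channel Cacna1a was at 152, 146 and 129.9 CPM in sham and 139, 104 and 157 in vehicle (-0.10 ± 0.14, adjusted p = 0.582 without JU replicate 1). Its partner at many terminals, Cacna1b, was at 143, 137 and 123 CPM in sham and 145, 97.5 and 127 in vehicle (-0.13 ± 0.12, adjusted p = 0.399). In both, only vehicle replicate 2 lay well below the sham range. Cacna1c, the main L-type channel of neurons and heart, had -0.03 ± 0.12. The other L-type gene of brain, Cacna1d, did not follow the rest: it was at 47.7, 48.9 and 49.0 CPM in sham, 53.0, 55.3 and 52.8 in vehicle and 52.7 in JU replicate 1. All vehicle libraries lay above all sham libraries, by a small margin. The difference did not pass with all libraries (0.15 ± 0.06, adjusted p = 0.154) or without JU replicate 1 (0.14). 589 exonic bases of Cacna1d (4.67%) overlap Chdh on the opposite strand, which was at 4.63, 5.63 and 4.75 CPM in sham and 5.48, 7.36 and 6.36 in vehicle and highest of all libraries in JU replicate 1 at 13.2, and with no stated strand setting for the counting, reads of this stretch cannot be told apart.

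The α2δ subunits, the binding site of gabapentin in the case of α2δ-1 and α2δ-2, contained, without JU replicate 1, the decrease with the smallest adjusted p, and 2 of the 4 genes fell. Cacna2d1 was at 291, 295 and 322 CPM in sham and 205, 137 and 193 in vehicle. No vehicle library came near the sham range. Its log2 fold change was -0.77 ± 0.12 (adjusted p = 0.00164) without JU replicate 1 and -0.76 ± 0.29 (adjusted p = 0.115) with it. Cacna2d3 was at 174, 177 and 149 CPM in sham and 125, 75.5 and 113 in vehicle, also apart, with a log2 fold change of -0.69 ± 0.18 (adjusted p = 0.0121; 0.184 with all libraries). Cacna2d2 and the low-level Cacna2d4 had values of -0.22 ± 0.15 and -0.24 ± 0.24 and did not pass.

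Of the 4 calcium channel β genes, those with the lower FPKM fell. Cacnb4, the β4 subunit whose loss causes epilepsy and ataxia in the lethargic mouse, was at 252, 258 and 247 CPM in sham and 181, 117 and 192 in vehicle (-0.63 ± 0.14, adjusted p = 0.0064 without JU replicate 1; 0.154 with it). Cacnb2 was at 55.7, 67.0 and 56.5 CPM in sham and 46.4, 39.3 and 42.7 in vehicle, with the 3 vehicle libraries close together. Its log2 fold change was -0.49 ± 0.10 (adjusted p = 0.00445) without JU replicate 1, and with all libraries it had the smallest p of the channel genes (0.0126, adjusted 0.093). 1433 of the 8963 exonic bases of Cacnb4 overlap a processed transcript on the opposite strand (A430018G15Rik) that the table does not list. Cacnb1 and Cacnb3 had fold changes of -0.22 ± 0.16 and -0.10 ± 0.11, with adjusted p of 0.299 and 0.503.

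Among the γ genes only Cacng6, a low-level gene of the branch closest to the muscle γ1 subunit, fell. It was at 3.84, 3.65 and 2.87 CPM in sham and 1.48, 1.23 and 1.63 in vehicle, with every vehicle library well below the lowest sham library, and its log2 fold change was -1.26 ± 0.27 (adjusted p = 0.00516 without JU replicate 1; 0.141 with it). The AMPA receptor regulators did not pass. Cacng3 was at 106, 106 and 105 CPM in sham and 84.8, 48.4 and 95.0 in vehicle (-0.49 ± 0.21, adjusted p = 0.087), all below sham but widely spread. Cacng2 (stargazin) and Cacng8 had -0.16 ± 0.15 and -0.14 ± 0.10. Cacng7 was the only γ gene with a positive value, 0.06 ± 0.09, and it turned to -0.10 when library trends on GC content were removed.

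**Figure D4:**
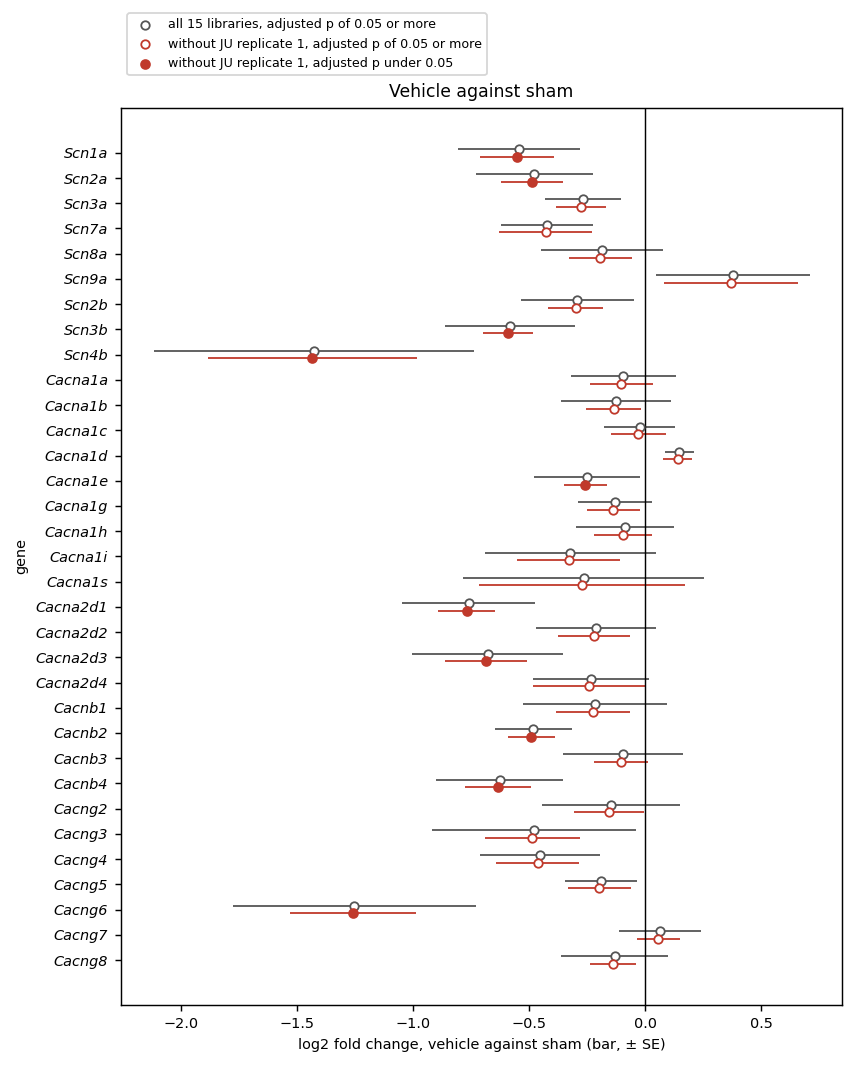
Log2 fold change of vehicle against sham (bar, ± SE) for 33 channel genes tested in both fits (Scn10a is not drawn); grey points use all 15 libraries and red points leave out JU replicate 1; filled points mark the 10 genes with an adjusted p under 0.05 without JU replicate 1, all of them lower.

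Vehicle and JU libraries also differed from the others in how levels depended on base composition. In the GC-poorest decile of genes, the median log2 deviation was -0.19 to -0.10 in the 6 vehicle and JU libraries and 0.03 to 0.16 in the 9 others. The 10 channel genes that fell had a median transcript GC content of 45.6% (39.0% to 54.5%), against 54.2% for the other 26 tested and 49.9% for all genes tested. With the GC trend of each library removed and JU replicate 1 left out, 7 channel genes were lower in vehicle, where 10.3% of all genes were. 5 of these are among the 10: Scn4b, Cacng6, Cacna2d3, Scn3b and Cacna2d1. Cacng4 (-0.59 ± 0.18, adjusted p = 0.0354) was among those called in addition. Cacna2d1 was at -0.49 ± 0.12 (adjusted p = 0.0165), down in size from -0.77. The other 5 lost the call. The difference shrank by over 1.5 times for Cacnb2, from -0.49 to -0.17 (adjusted p = 0.195), Cacnb4, from -0.63 to -0.35 (0.0852), Scn2a, from -0.49 to -0.28 (0.131), and Scn1a, from -0.55 to -0.35 (0.132). Cacna1e kept nearly its size, from -0.26 to -0.22 (0.0999). With the correction and all 15 libraries, edgeR called 0 channel genes and 0 of all genes. An unadjusted p under 0.05 was found for 3 channel genes and for 2945 of all 15010 genes.

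**Figure D5:**
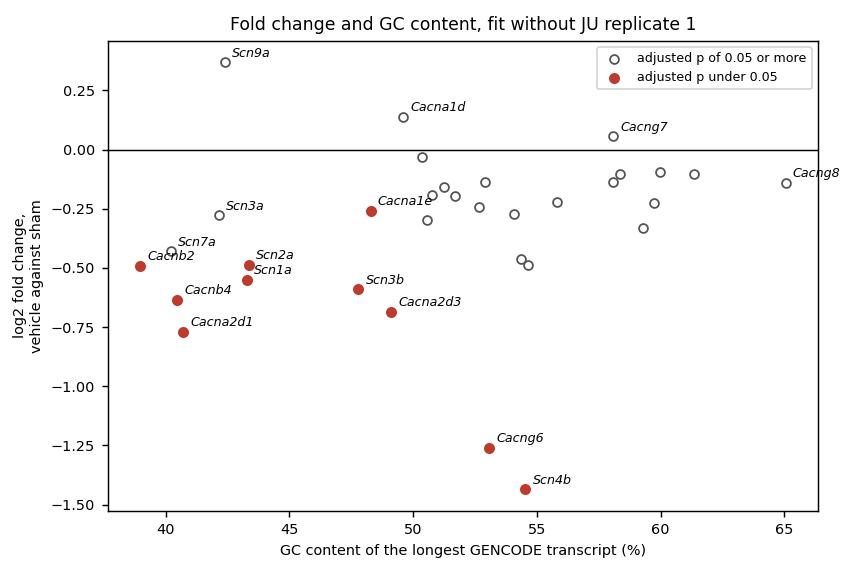
Log2 fold change of vehicle against sham, without JU replicate 1, plotted on the GC content (percent) of the longest annotated transcript; each point is 1 of 33 channel genes. Filled points are the 10 genes with an adjusted p under 0.05; 5 of them lie under 45% GC, together with 3 of the others, and Scn10a and Scn11a are not drawn.

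Genes that sit side by side did not move together in every case. Scn2b and Scn4b lie 8.324 kb apart on the same strand of chromosome 9 (chr9:45117782-45130070 and chr9:45138395-45154152, GRCm38), with fold changes of -0.30 ± 0.12 and -1.43 ± 0.45. Cacng7, Cacng8 and Cacng6 follow each other on chromosome 7, with 8.546 kb between the last pair (chr7:3390683-3415648 and chr7:3424195-3435667), and had 0.06, -0.14 and -1.26. In the sodium channel cluster of chromosome 2, which runs Scn3a, Scn2a, Scn1a, Scn9a and Scn7a, the values in this order were -0.28, -0.49, -0.55, 0.37 and -0.43. The differences between neighbours were not tested.

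JA against vehicle and UA against vehicle ask whether the treated groups differ from the vehicle group. Both share their vehicle libraries with each other and with the comparison above, so they are set side by side and not counted as separate evidence. In JA, 31 of 36 channel genes were higher than in vehicle with a median of 0.24 (all genes -0.01), and all JA libraries lay above all vehicle libraries for 9, where 17.6% of all genes tested did. In UA, 31 were higher with a median of 0.21 (all genes -0.01), and 12 lay apart, where 21.7% of all genes did. All 10 pan-neuronal markers were higher than in vehicle too, with medians of 0.24 in JA and 0.32 in UA. So were all 7 interneuron and all 9 striatal markers in both groups, but only 2 of 7 thalamic markers in JA and 3 in UA. The part of cell composition in these differences was not tested. With all 15 libraries edgeR called 0 channel genes in either comparison, where 1.56% and 3.47% of all genes were called. In each, 3 had an unadjusted p under 0.05, as did 2846 and 3681 of all 15125 genes. DESeq2 called 0 in either, with 768 and 1097 of all genes higher and 185 and 435 lower. With only the groups compared in the fit, 3 were higher in UA, Cacna2d1, Cacnb2 and Scn3b (7.78% of all genes). Without JU replicate 1, 8 channel genes were higher in JA (11.3% of all genes) and 9 in UA (14.8%), and 0 were lower in either. Without vehicle replicate 2, but with JU replicate 1 in the fit, the medians were 0.12 and 0.06. There edgeR called 0 channel genes and 0 of all genes in both. An unadjusted p under 0.05 was found for 0 channel genes in both, and for 1493 and 1906 of all 15262 genes. Since JU replicate 1 stayed in, this fit cannot show whether the calls made without it depend on vehicle replicate 2. With GC correction and without JU replicate 1, 0 were called in JA (0.0% of all genes higher) and 2 in UA, Cacna2d1 and Scn3b (4.81%).

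The pore genes that rose without JU replicate 1 were Scn1a, Scn2a and Cacna1e in both groups and Scn3a in UA. Scn2a was at 430.0, 470.4 and 507 CPM in JA and 402, 475 and 495 in UA, all above the vehicle libraries and around the sham range. Its fold change was 0.53 ± 0.13 (adjusted p = 0.0197) in JA and 0.50 ± 0.13 (adjusted p = 0.0179) in UA. Scn1a was at 168, 218 and 225 CPM in JA (0.64 ± 0.16, adjusted p = 0.0192) and 165, 191 and 206 in UA (0.53 ± 0.16, adjusted p = 0.0286). In both groups the first library was the lowest. Cacna1e was at 297, 288 and 299 CPM in JA (0.39 ± 0.09, adjusted p = 0.0155), each library above the highest sham library of 274, and at 269, 284 and 288 in UA (0.32 ± 0.09, adjusted p = 0.0226). Scn3a had 0.33 ± 0.11 in UA (adjusted p = 0.0393) and 0.30 ± 0.11 in JA (adjusted p = 0.0653), and the difference between JA and UA was not tested.

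Of the accessory genes, Cacna2d1, Cacna2d3, Cacnb2, Cacnb4 and Scn3b rose in both groups without JU replicate 1. Cacna2d1 was at 268, 291 and 309.5 CPM in JA (0.70 ± 0.12, adjusted p = 0.00579) and 269, 304 and 285 in UA (0.69 ± 0.12, adjusted p = 0.00353). The lowest treated library stood well above the highest vehicle library of 205. Cacnb4 was at 230.0, 255 and 279.9 CPM in JA and 229, 259 and 257 in UA, with adjusted p of 0.0128 and 0.0109. Cacnb2 was at 49.3, 54.5 and 58.7 CPM in JA and 56.1, 53.5 and 59.2 in UA, with adjusted p of 0.0354 and 0.0143. Scn3b was at 183, 184 and 209 CPM in JA and 194, 192 and 230.2 in UA, with adjusted p of 0.0122 and 0.00402. All JA and UA libraries of these 3 genes were above all vehicle libraries. For Cacna2d3 the JA libraries overlapped vehicle, at 117, 167 and 172 CPM (adjusted p = 0.0496), while UA lay apart at 142, 153 and 154 (adjusted p = 0.0432).

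The 2 genes with the largest drop in vehicle were not called higher. Scn4b was at 127, 325 and 339 CPM in JA and 248, 259.9 and 241 in UA: JA replicate 1 lay inside the vehicle range, while the UA libraries were tight and above it (1.15 ± 0.45 and 1.08 ± 0.45, adjusted p = 0.0913 and 0.0951, without JU replicate 1). JA replicate 1 also had the lowest striatal marker sum of its group, 914 CPM against 1336 and 1819, and the part of this in its Scn4b level was not tested. Cacng6 was at 1.06, 1.54 and 1.93 CPM in JA and 1.55, 2.12 and 2.10 in UA, overlapping vehicle and below every sham library in both groups (0.07 ± 0.28 and 0.42 ± 0.28, adjusted p = 0.883 and 0.264). Cacna2d4 had a negative value in UA, at 2.49, 2.07 and 2.51 CPM against 2.46, 4.61 and 3.15 in vehicle (-0.52 ± 0.25, adjusted p = 0.128). Cacna1d was at 46.3, 49.4 and 51.5 CPM in UA, below all vehicle libraries, and did not pass (-0.12 ± 0.06, adjusted p = 0.15).

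The JU libraries spread widely, and for several channel genes they lay on both sides of vehicle. Scn2a was at 177, 412 and 374 CPM, Cacna2d1 at 82.1, 226 and 219 and Scn4b at 22.4, 299 and 185: replicate 1 was below every vehicle library and replicates 2 and 3 were above the vehicle mean in each case. JU against vehicle had a median log2 fold change of -0.02 over the channel genes with all libraries (17 of 36 positive; all genes 0.03). It was 0.28 without replicate 1, with 32 of 37 positive. edgeR called 0 channel genes and 0.0% of all genes in the former, and 0 channel genes and 0.00656% of all genes in the latter. An unadjusted p under 0.05 was found for 1 channel gene in the former (300 of all 15125 genes) and for 10 in the latter (3363 of all 15242). DESeq2, run with all libraries, called 0 channel genes and 2 of all genes higher and 0 lower. The largest fold change with all libraries, and the smallest p, was that of Scn9a, known for its role in pain-sensing neurons, at 0.72, 1.53 and 1.38 CPM in JU and 2.51, 1.72 and 2.44 in vehicle. JU lay below vehicle without overlap (-0.87 ± 0.34, unadjusted p = 0.0227, adjusted p = 1, edgeR). Cacng6 was at 0.36, 2.29 and 3.06 CPM in JU, where replicate 3 reached the sham range, with 0.89 ± 0.30 against vehicle without replicate 1 (adjusted p = 0.186). The T-type gene Cacna1g had 0.34 ± 0.13 there (adjusted p = 0.187).

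Against the other treated groups JU was lower for most channel genes with all libraries: 33 of 36 against JA (median -0.28) and 32 of 36 against UA (median -0.23). All JU libraries lay below all JA libraries for 9 genes (10.6% of all genes tested) and below all UA libraries for 6 (13.9%). edgeR called 0 channel genes in both, where 0.0% and 1.08% of all genes were called. An unadjusted p under 0.05 was reached by 7 and 5, as by 3074 and 4124 of all 15125 genes. DESeq2 called 0 against JA (437 of all genes lower, 197 higher) and 1 against UA, Scn3a, lower in JU (5.6% of all genes lower). Without JU replicate 2, 3 genes were lower than in UA, Cacnb2, Scn3a and Scn3b (8.28%). Scn3a had the smallest p of the channel genes in both comparisons. It was at 23.5, 40.5 and 33.2 CPM in JU, 46.7, 43.8 and 50.2 in JA and 42.7, 51.2 and 48.9 in UA, with every JU library under every JA and UA library. Its fold change was -0.53 ± 0.16 against JA (adjusted p = 0.157) and -0.55 ± 0.16 against UA (adjusted p = 0.0957). Cacnb2 had -0.43 ± 0.17 and -0.49 ± 0.17 against JA and UA (adjusted p = 0.211 and 0.125). With JA and JU alone fitted and the replicate number as a block, edgeR again called 0 channel genes against JA, and 0 of all genes. In that fit 4 channel genes had an unadjusted p under 0.05, as did 1110 of all 14604 genes. Without JU replicate 1 the medians moved to -0.02 and 0.06, and 0 channel genes were called (0.0% and 0.623% of all genes). There 3 and 6 had an unadjusted p under 0.05 (edgeR), as did 2021 and 2546 of all 15242 genes.

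Genes of proteins that bind or regulate these channels were listed by function, with earlier results of these data known. With all 15 libraries edgeR called 0 of them in vehicle against sham. Without JU replicate 1, all 4 fibroblast growth factor homologous factors, which bind the sodium channel tail and slow its inactivation, fell. Fgf14 was at 70.6, 69.4 and 73.0 CPM in sham and 52.2, 37.8 and 50.0 in vehicle (-0.61 ± 0.11, adjusted p = 0.0029), and Fgf13 had -0.61 ± 0.12. Of 5 calmodulin and calmodulin kinase II genes, which carry calcium feedback onto the channels, 2 fell, among them Calm2 (-0.74 ± 0.12). 5 of 10 AMPA receptor subunits and partners fell, with Gria4 (-0.66 ± 0.16) and Gria2 (-0.53 ± 0.13) first by p, and 2 of 8 active zone scaffold genes did, Erc2 (-0.42 ± 0.10) and Rims2 (-0.56 ± 0.15). 1 gene fell in each of the axon initial segment list (of 6; Nrcam, -0.36 ± 0.09), the sodium leak channel list (of 4; Nalcn, -0.40 ± 0.13) and the ubiquitin ligase list (of 3; Nedd4l, -0.30 ± 0.08). With 16.9% of all genes called lower in this fit, counts such as 2 of 8 or 1 of 6 are near the background.

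Genes that rose were in the RGK and α2δ ligand lists. Of 4 RGK GTPases, inhibitors of calcium channels at the membrane, Rrad rose from 1.05, 0.834 and 0.73 CPM in sham to 1.69, 3.53 and 2.49 in vehicle (1.55 ± 0.36, adjusted p = 0.00756, without JU replicate 1). Of 4 genes listed as α2δ ligands or homologue, the thrombospondins Thbs1, Thbs2 and Thbs4, secreted proteins that bind α2δ-1, rose, where 17% of all genes were called higher. Thbs1 was at 4.10, 4.27 and 4.49 CPM in sham, 16.6 to 123 in vehicle, 20.5, 5.04 and 4.25 in JA, 6.58, 9.18 and 7.12 in UA and 206, 5.74 and 6.76 in JU. It was highest in JU replicate 1 and vehicle replicate 2, the libraries with the lowest channel levels. Its fold change in vehicle was 3.62 ± 0.86 (adjusted p = 0.0104), and Thbs2 had 1.52 ± 0.32 (adjusted p = 0.00558). Fibroblast markers, none at 0, were highest in the same 2 libraries: their sum over 5 genes was 94.6 to 113 CPM in sham, 401, 1352 and 322 in vehicle and 3123 in JU replicate 1, and the part of this in the thrombospondin levels was not tested. Against vehicle, 3 of 4 homologous factors rose in JA (11.3% of all genes higher) and 4 of 4 in UA (14.8%) without JU replicate 1. Genes of other lists rose too, in JA and UA in turn: 4 and 4 of 10 AMPA receptor genes, 3 and 4 of 8 active zone genes and 2 and 2 of 5 calmodulin and kinase genes. The axon initial segment and sodium leak lists had 1 each in both groups, and the ubiquitin ligase list 0. Of the thrombospondins, Thbs2 fell in JA (-1.04 ± 0.32, 7.76% of all genes lower) and all 3 in UA (Thbs2 -1.31 ± 0.32, 13.4%).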

How the data were processed

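Groups and replicate numbers came from the sample labels. The deposited table holds whole-number read counts per gene and FPKM values made by the authors, as its headers name them. Per the submitters' processing notes the tools included Cufflinks, DESeq, HISAT2 and Trimmomatic and the build was GRCm38 (mm10), with no roles or versions; the kits were mirVana and TruSeq Stranded mRNA, per the labels' protocols. Not given in the sources used here: counting tool, strand setting and annotation. 1 value column matched no sample label and was not used. Genes were matched to GENCODE (GRCm38) by Entrez identifier or symbol (18524 of 18931; all 40 channel genes).

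The deposited counts were tested with edgeR 4.0.16 (R 4.3.3): filterByExpr (15125 genes kept), TMM scaling (factors 0.975 to 1.03), robust quasi-likelihood fit of all 15 libraries with 1 term per group (10 residual degrees of freedom, biological coefficient of variation 27.1%) and Benjamini-Hochberg adjustment over all genes tested, at 0.05. SE was taken as the absolute log2 fold change over the root of the F statistic. CPM values are TMM-scaled. The fits were tested on simulated data with a smaller spread than these data and no outlying library, which does not cover the effect of JU replicate 1. Alternatives used DESeq2 1.42.0, limma 3.58.1 on log2(FPKM + 0.1) of the authors' FPKM values, other scaling or filtering, a replicate block, GC offsets (lowess span 0.3) and left-out libraries. Between JA and JU alone of the 10 pairs of groups, all same-numbered libraries deviated together (correlations 0.70, 0.39 and 0.42, all over 0.1), so a blocked fit of these groups was added after seeing the data. Differently numbered libraries ran both ways: 0.59 for JA replicate 3 with JU replicate 2, 0.77 for vehicle replicate 2 with JU replicate 1, and -0.69 for JA replicate 1 with JU replicate 2. These correlations therefore cannot show that libraries are paired. No pair of replicates agreed within sampling noise (chi-square per degree of freedom of 5.02 or more). Channel genes named with values are, per comparison, those past the threshold or else the 5 with the smallest p, and the 2 of each class with the highest FPKM. In the comparisons with JU only some of these 5 are given with fold changes, and Cacng6 and Scn4b are given for JU outside this rule. The channel genes, gene lists and alternatives were chosen with earlier results of these data known. Other genes named outside the rule (Cacna1i, Cacna1c, Cacng2, Cacng4, Cacng8, Cacna2d2 and Scn7a) were added after their values were seen. Some genes that enter the counts are not reported here by name and are not drawn.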

Additional observations from a re-analysis of the deposited data

How the results depend on the processing

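The number of channel genes called, 0 in each comparison with all 15 libraries, changed under 10 of 88 alternatives. In vehicle against sham it was 1 lower with DESeq2 (9.4% of all genes tested lower) and 8 lower when only the 2 groups compared entered the fit (11.7%). It was 10 lower without JU replicate 1 (16.9%) and 7 lower with GC correction and without it (10.3%). In JA against vehicle it was 8 higher without JU replicate 1 (11.3%). In UA against vehicle it was 3 higher when only the groups compared were fitted (7.78%), 9 higher without JU replicate 1 (14.8%) and 2 higher with GC correction and without it (4.81%). In JU against UA it was 1 lower with DESeq2 (5.6%), and leaving out 1 library of either group gave 0 to 3 lower, the 3 (Cacnb2, Scn3a and Scn3b) without JU replicate 2 (8.28%). Leaving out 1 library of the groups compared gave 0 in the other comparisons. The cause of these changes was not tested.

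The median over the channel genes changed sign for JU against vehicle, to 0.28 with GC correction and without JU replicate 1; leaving out 1 library gave -0.24 to 0.28, with 0.067 without vehicle replicate 1, 0.036 without vehicle replicate 3 and 0.28 without JU replicate 1. For JU against UA, leaving out 1 library gave -0.54 to 0.060, the latter without JU replicate 1. Of the values of single genes 1077 kept direction and call, 50 passed the threshold only under an alternative and 18 changed sign. Leaving out 1 library moved these across 0. In vehicle against sham Cacna1a ran from -0.24 to 0.046, Cacna1b from -0.27 to 0.0076, Cacnb3 from -0.21 to 0.034 and Cacng7 from -0.0040 to 0.15. In JA against vehicle Cacna1a ran from -0.040 to 0.25, Cacng6 from -0.15 to 0.27 (-0.038 without vehicle replicate 2) and Cacng7 from -0.054 to 0.10. In UA against vehicle Cacna1a ran from -0.073 to 0.21, Cacnb3 from -0.048 to 0.19 and Cacng7 from -0.071 to 0.085. Cacng7 in vehicle against sham was -0.10 with GC correction, with or without JU replicate 1. With limma, Cacng6 (-0.011) and Cacng7 (-0.0032) changed sign in JA and Cacng7 (-0.029) in UA against vehicle. With GC correction and without JU replicate 1, Cacnb2 was 0.024 in JU against JA and 0.00027 in JU against UA.

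Between JA and JU every same-numbered pair of libraries had a correlation of deviations over 0.1. In the 9 other pairs of groups this did not hold (over all 30 pairs, 7 over 0.1, range -0.73 to 0.70). So few libraries cannot exclude a pairing there, and the labels state none. For JA and JU a pairing is not shown, since the differently numbered JA replicate 3 and JU replicate 2 had 0.59. With the replicate number as a block 0 channel genes were called in every comparison, as without it, and also in the blocked fit of JA and JU alone (median -0.33). The whole-table count in vehicle against sham was 383 with the block and 760 without it. Counting error bears most on Scn4a, Cacna1f, Cacng1, Scn11a and Scn10a, and also on Cacng6, Cacna1s and Scn9a, with as few as 7, 9 and 14 counts in a library.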
